A study of Mus musculus with 15 samples.

Results

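The Il6 locus was described here as the DNase I hotspots that overlapped chromosome 5 from 30290000 to 30400000 in the mouse build mm9, a window of 110.0 kb around Il6, which lies at about 30.340 to 30.347 Mb. The hotspots of 15 libraries were merged wherever they shared at least 1 bp, which gave 18 elements in the window, of 324185 merged regions in the genome. DNase-seq finds accessible chromatin as stretches that DNase I cuts readily, and a hotspot is such a stretch as the authors called it in a single library. The cells were macrophages grown from the bone marrow of C57BL/6J mice, and they had 10 ng/ml lipopolysaccharide (LPS) for 0, 3 or 8 h. Each time had 2 Ikzf KO libraries, 1 littermate control library and 2 wild type (WT) libraries, and littermate and WT libraries together are called controls. The series title names Ikaros, the zinc finger protein that Ikzf1 encodes, and the KO allele and the number of animals per library were not given in the sources used here. The titles give 80 U of DNase for all KO and littermate libraries and for WT replicate 1, and 100 U for WT replicate 2.

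Il6 encodes interleukin-6, a cytokine that macrophages release early in infection and that drives fever, the acute phase response of the liver and the maturation of B and T cells. LPS, a part of the wall of Gram-negative bacteria, is sensed by Toll-like receptor 4, and the NF-kB, AP-1 and C/EBP transcription factors that act downstream of it bind the Il6 promoter. Accessible sites away from a promoter can be enhancers, to which such factors bind at a distance from the gene.

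The promoter sequence is shown because the element on it was the strongest of the window by Z-score rank in 14 of the 15 libraries, and by highest tag density in 13. In the WT libraries at 0 and 3 h it was the only element of the window, so no other could be stronger there. The sequence shown is the RefSeq sequence of the build GRCm38.p6, from 250 bases before to 50 bases after the gene start, on the forward strand at chr5:30012864-30013163. These coordinates belong to GRCm38.p6 and not to the mm9 build of the hotspot lists. Capitals mark matches to the 4 motifs described below.
Il6 promoter: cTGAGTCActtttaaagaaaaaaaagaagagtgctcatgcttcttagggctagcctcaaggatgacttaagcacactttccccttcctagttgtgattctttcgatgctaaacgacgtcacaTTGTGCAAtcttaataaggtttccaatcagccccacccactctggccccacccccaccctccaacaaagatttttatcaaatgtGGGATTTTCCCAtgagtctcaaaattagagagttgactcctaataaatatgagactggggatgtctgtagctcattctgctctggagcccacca

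Both strands were searched for each motif. The NF-kB motif, GGGNN followed by TTTCC, matched as GGGATTTTCC on the forward strand, 44 to 35 bases before the gene start, and 1.63% of 32851 promoters of the same length held it. The C/EBP motif TTGNGCAA matched 128 to 121 bases before the start (in 2.94% of promoters), and the AP-1 motif TGANTCA matched 249 to 243 bases before it (in 7.81%). The Ikaros motif TGGGAA matched on the reverse strand, 38 to 33 bases before the start, and overlapped the end of the NF-kB match. It was found in 25.6% of promoters. A match describes letters in this window and does not show that a factor bound there.

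The lists differed in ways that bear on every comparison. They held 111553 to 132279 hotspots in KO, 52400 to 114427 in littermate and 15659 to 51834 in WT libraries. The lowest Z-score of a list was 3.40 to 3.66 in KO, 3.65 to 4.54 in littermate and 7.98 to 10.6 in WT, so absence from a WT list says less than absence from a KO list. The hotspot ranked 15659 had a Z-score of 25.1 to 40.01 in KO, 25.8 to 27.3 in controls at 8 h and 8.48 to 11.4 in controls at 0 and 3 h. Without read counts, the depth is unknown, and within a list the MaxD values were whole multiples of a step that measured 0.237 to 0.451. The part of depth, of the authors' thresholds and of the DNase amount in the values below was not tested. Hotspot lists hold no measure of Ikzf1 expression, so they do not check the KO labels. The macrophage marker genes were not placed in the lists, since only a GRCm38.p6 annotation was used here.

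The element at the Il6 promoter was in all 15 deposited lists, as were 3.22% of all merged regions. It spanned chromosome 5 from 30338422 to 30342322, from about 1.6 kb before the gene start into the first part of the gene. Its highest tag density (MaxD, the authors' value for the peak of a hotspot, with no stated scaling between libraries) was 12.1 and 12.5 in KO at 0 h, then 21.0 and 22.7 at 3 h, then 27.1 and 25.1 at 8 h. In littermate libraries it was 6.40 at 0 h, 9.93 at 3 h and 21.6 at 8 h. In WT libraries it was 6.77 and 5.89 at 0 h, then 11.3 and 11.1 at 3 h, then 25.1 and 26.4 at 8 h. Within each genotype the density was lowest before LPS and highest at 8 h, and the replicates of different times did not overlap. Densities in KO were above those of every control library at 0 h and at 3 h, and overlapped the controls at 8 h. In a bulk library, fewer cells with an open site and less cutting per cell cannot be told apart.

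Whole lists differed between KO and controls in the same direction before 8 h. The median MaxD of the 15659 best hotspots was 24.8 and 24.6 in KO at 0 h, against 8.28 in littermate and 8.76 and 10.3 in WT libraries at 0 h. Divided by that median, the promoter density was 0.487 and 0.506 in KO at 0 h, against 0.773 in littermate and 0.773 and 0.571 in WT libraries. At 3 h it was 0.833 and 0.919 in KO, against 1.16 in littermate and 1.29 and 1.00 in WT libraries. At 8 h it was 0.882 and 0.815 in KO, against 0.823 in littermate and 0.882 and 1.01 in WT libraries. On this scale KO lay below every control at 0 and 3 h, the opposite order to the raw density, and overlapped the controls at 8 h.

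To compare lists of different length, each was shortened to its 15659 best hotspots by Z-score, the length of the shortest list. The rank strength of an element is the position of its best hotspot in that list, from 100 for the strongest to 0 for an element outside it. The promoter element had 20.8 and 18.4 in KO at 0 h, then 66.8 and 63.3 at 3 h, then 54.2 and 56.3 at 8 h. It had 28.4, 73.7 and 45.1 in littermate libraries at 0, 3 and 8 h. It had 49.9 and 0 in WT at 0 h, then 79.0 and 65.7 at 3 h, then 57.0 and 61.7 at 8 h. Every series of libraries (a genotype and replicate number followed over time) was lowest at 0 h and highest at 3 h, and the value of 0 was WT replicate 2, whose hotspot stood at rank 16779 of 21377.

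Ordered by mean rank strength, the groups ran from littermate at 3 h (73.7), WT at 3 h (72.3 ± 9.46, SD, n = 2) and KO at 3 h (65.1 ± 2.45, n = 2) to WT at 8 h (59.4 ± 3.27, n = 2), KO at 8 h (55.2 ± 1.52, n = 2) and littermate at 8 h (45.1). The 0 h groups came last, with littermate at 28.4, WT at 25.0 ± 35.3 (n = 2) and KO at 19.6 ± 1.72 (n = 2). Littermate and WT at 3 h differed by less than the WT spread, and so did the 3 groups at 0 h. KO and WT at 3 h had means that differed by less than the WT spread as well. The means of WT and KO at 8 h differed by more than either SD, and their values did not overlap.

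**Figure D1:**
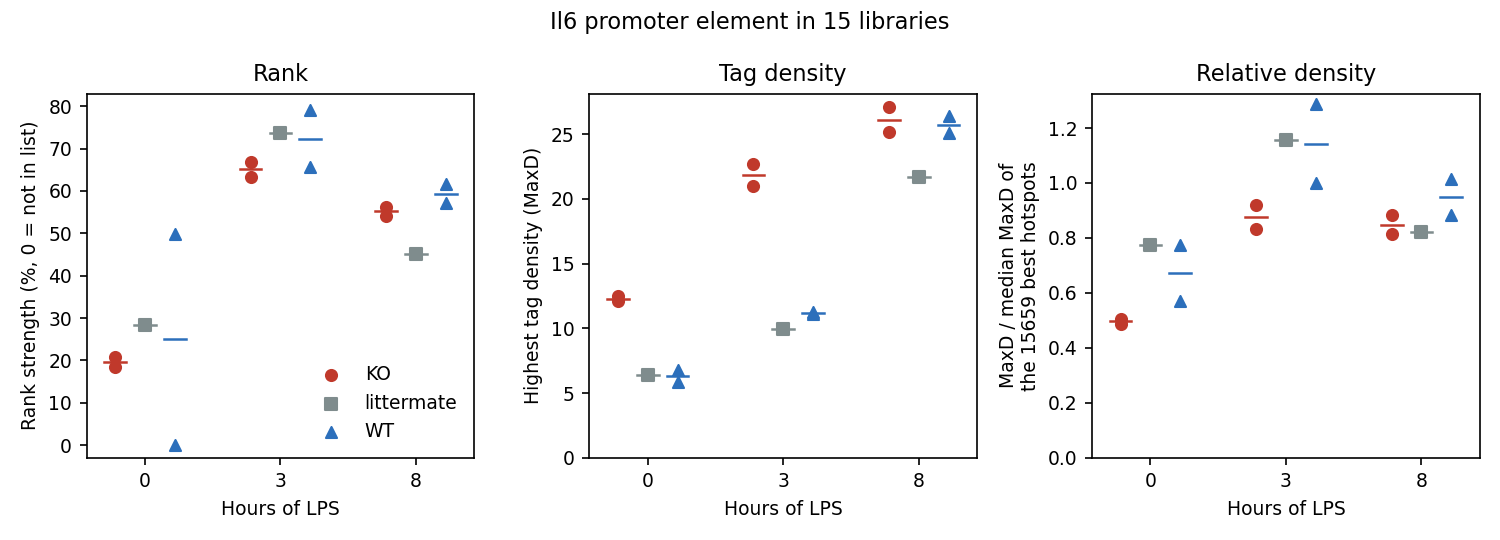
Il6 promoter element in each of the 15 libraries by hours of LPS, as rank strength in lists of 15659 hotspots (left), as highest tag density (middle) and as that density divided by the median of the 15659 best hotspots (right). Points are libraries and short lines are group means, and the littermate groups have 1 library each. KO stands above the controls at 0 and 3 h in density and below them in relative density.

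The promoter element ranked higher at 3 h and at 8 h of LPS than at 0 h in all 5 series. At 3 h the mean rank strength was 69.7 ± 6.49 against 23.5 ± 18.1 at 0 h (SD, n = 5 libraries each), a difference of 46.2. At 8 h, with 17237 hotspots per list, it was 59.0 ± 5.55 against 29.2 ± 18.6 at 0 h, a difference of 29.8. For each, a two-sided exact permutation test that shuffled times inside each genotype gave p = 0.0278, the smallest that 72 arrangements allow, and p = 0.0556 after Benjamini-Hochberg adjustment over 4 tests, which does not pass 0.05. With the replicate block, which shuffles times only within a genotype and replicate number, p was 0.0625 for each (exact permutation), the smallest that 32 arrangements allow. The labels do not say whether replicates were separate animals or cultures, and these p-values measure the spread between libraries, which may be technical. In KO libraries alone, with 111553 hotspots per list, strength was 93.6 and 93.9 at 8 h against 88.9 and 88.5 at 0 h. The promoter was stronger in both KO lists at 8 h than in either at 0 h, as were 17.0% of regions, and also at 3 h, as were 14.0%. In WT it was stronger in both lists at 8 h (25.9% of regions) and at 3 h (17.8%) than in either at 0 h, so this pattern within a genotype was common. The comparison within KO does not use the control libraries of 0 and 3 h, with their low hotspot scores.

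At 3 h the promoter was stronger in all 5 lists than in any list at 0 h, and 2.49% of 26533 merged regions did the same. At 8 h this was not so, because WT replicate 1 at 0 h (54.5 in lists of 17237) stood above the littermate library at 8 h (50.1); 4.48% of 28665 regions were stronger in all lists at 8 h than in any at 0 h. Set against 3 h, the promoter had a lower rank strength at 8 h in every library, 45.1 to 61.7 against 63.3 to 79.0, whereas its density was higher at 8 h in every series. Of 24484 merged regions, 0.772% stood lower in all lists at 8 h than in any at 3 h. This comparison of 8 h with 3 h was chosen after the values were seen.

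KO and control libraries did not differ detectably in the rank of the promoter. Averaged over times, rank strength was 46.6 ± 21.4 in KO (SD over 6 libraries of 3 times) and 51.2 ± 24.5 in controls (9 libraries), a difference of -4.53 (exact permutation of genotype within time, two-sided p = 0.52, adjusted p = 0.693). The difference depended on the setting. It was -14.4 when hotspots were ranked by density (exact permutation p = 0.015) and turned round to 1.61 without WT replicate 1. It also turned round in the lists as deposited, to 18.5 (exact permutation p = 0.022), but there rank strength is relative to lists of unequal length and longer KO lists raise it. At 8 h alone it was 0.208 with 48084 hotspots per list (exact permutation p = 1, with 0.1 the smallest p that 10 arrangements allow). The change with LPS from 0 to 8 h was 30.3 and 34.4 in the KO series, against 15.1 in the littermate and 6.49 and 62.5 in the WT series. These changes join libraries by replicate number, which in WT goes with the DNase amount. KO and control changes overlapped, and their means differed by 4.32 (exact permutation p = 1 over 10 arrangements). Without WT replicate 1 that difference was -5.21, without WT replicate 2 it was 21.6, and without the littermate series it was -2.15.

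Hotspots covered more of the promoter element in KO libraries. They covered 2214 and 2173 bp in KO at 0 h, against 644 bp in littermate and 604 and 323 bp in WT libraries. At 3 h they covered 3489 and 2797 bp in KO, against 1619 bp in littermate and 867 and 1140 bp in WT. At 8 h they covered 3535 and 3596 bp in KO, against 3301 bp in littermate and 2025 and 2573 bp in WT. KO exceeded every control at each time, and KO lists also reached down to lower Z-scores than control lists. Part of the width was a second hotspot about 1 kb inside the gene, which both KO libraries had at 0 h as a separate hotspot and the control libraries at 0 h did not have. Such a region was in both KO lists and in no control list at 0 h in the lists as deposited, as were 21.6% of all regions, a common pattern.

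**Figure D2:**
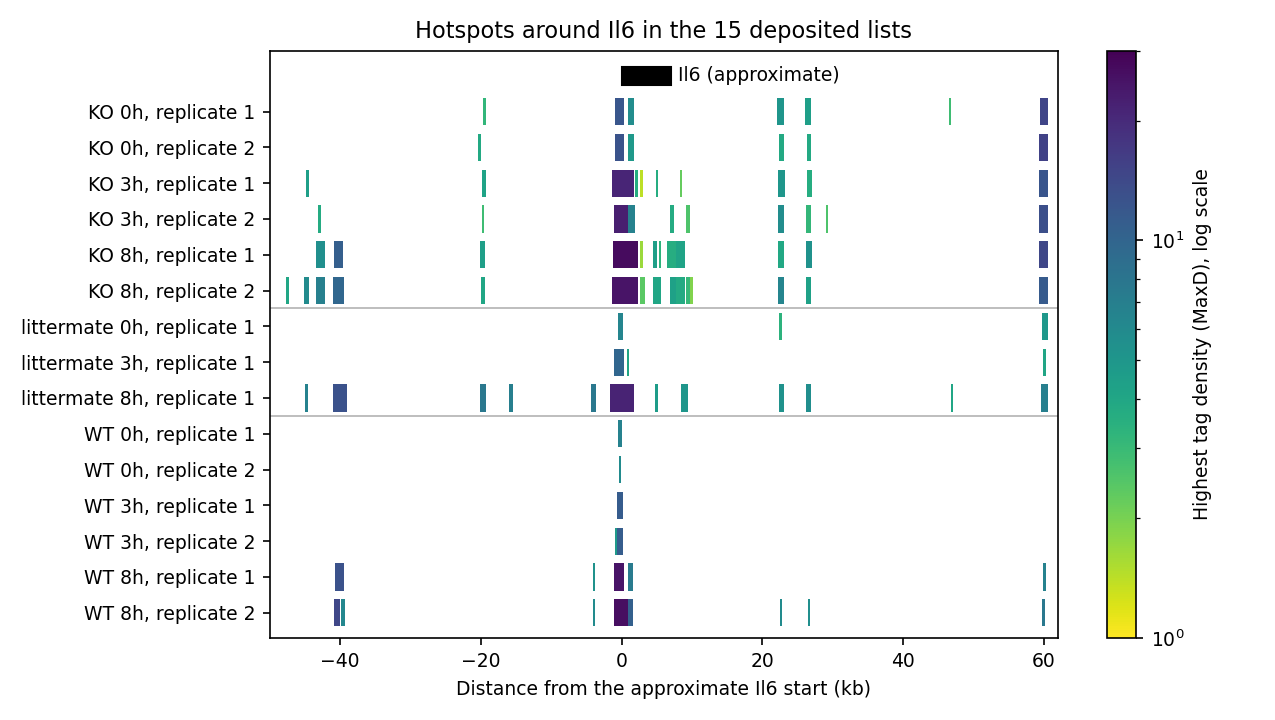
Hotspots of the 15 deposited lists by distance from the approximate Il6 start in kb (negative is upstream), with 1 row per library and colour for the highest tag density on a log scale. The element 40.0 kb upstream is in all 5 libraries at 8 h and in none at 0 or 3 h, and the element 4.0 kb upstream is in the 3 control libraries at 8 h.

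An element 40.0 kb upstream of Il6 appeared in every library at 8 h and in no earlier library. It spanned chromosome 5 from 30299000 to 30301033. Its MaxD at 8 h was 10.9 and 9.73 in KO, 12.7 in littermate, and 12.7 and 14.6 in WT libraries, with Z-scores of 16.2 and 19.5, of 18.8, and of 18.2 and 19.3. Of the 324185 merged regions of the deposited lists, 128 (0.0395%) were in all 5 lists at 8 h and in none of the 10 lists at 0 and 3 h. Lists at 8 h were the longest of each series, so this count, chosen after the values were seen, was also taken within KO at equal length.

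With 111553 hotspots per KO list, the element 40.0 kb upstream was in both lists at 8 h at ranks 37321 and 34969 and in none of the 4 at 0 and 3 h, a pattern of 1.43% of 233613 regions. It was the single region of 16 in the window with that pattern. In KO the element had Z-scores of 16.2 and 19.5 at 8 h, against lowest Z-scores of 3.54 to 3.66 for the lists at 0 and 3 h. In the control lists at 0 and 3 h the lowest were 4.38 and 4.54 in littermate and 8.29 to 10.6 in WT, where hotspots of equal rank had lower scores than at 8 h, so absence says less there. In shortened lists of 17237 hotspots over all genotypes the element was absent at both times, because its rank at 8 h was 22232 or lower. Only 2 elements of the window entered these lists, or those of 15659 hotspots for 3 h against 0 h. They were the promoter and the element 60.0 kb downstream, and neither was gained or lost in all 5 series. The promoter was in at least 4 of the 5 lists of each time, so a call there was barely possible. These 2 elements are too few to compare with the genome. Its shares for 8 h were 1.78% (gained) and 0.712% (lost) of 28665 regions. For 3 h the shares were 0.923% and 0.705% of 26533.

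Within KO, the window gained more elements by 8 h. Of its 16 regions in lists of 111553 hotspots, 6 were in both libraries at 8 h and in neither at 0 h, against 5.74% of 192475 regions in the genome, and none was lost (1.99% in the genome). Another 4, those 19.8 kb upstream and 22.7, 26.6 and 60.0 kb downstream, ranked lower in both lists at 8 h than in either at 0 h, against 15.1% of regions. Their Z-scores did not all fall with the rank. At 19.8 kb upstream they rose in KO from 5.45 and 5.39 at 0 h to 6.29 and 5.96 at 8 h. At 26.6 kb downstream they rose from 7.05 and 7.51 to 8.96 and 9.31. At 22.7 and 60.0 kb downstream the KO Z-scores of 0 and 8 h overlapped. Neighbouring elements share libraries and a locus and are not independent. Merged anew over the lists of 3 h and 0 h, the window held 15 regions, and none of them was in both KO libraries at 3 h and in neither at 0 h, against 4.09% in the genome. The element 8.8 kb downstream was in both KO libraries at 3 h and in neither at 0 h, but its hotspots in the 2 libraries did not overlap each other and counted there as separate regions. The 6 were the elements 42.8 and 40.0 kb upstream and those 2.9, 5.0, 7.1 and 8.8 kb downstream of the gene start, the last 4 inside Il6 or close to its end at about 30.347 Mb. Gains were not limited to KO. Between the single littermate lists of 0 and 8 h, with 64262 hotspots each, 6 of 9 regions were gained, against 32.8% in the genome. None was lost, against 27.9% in the genome.

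The element 42.8 kb upstream, from 30296537 to 30297876, lay beside the element 40.0 kb upstream. Its MaxD was 5.58 and 6.88 in KO at 8 h and 3.73 in KO replicate 2 at 3 h. It was in no control list, including the littermate list at 8 h, whose lowest Z-score was 3.65. Its Z-scores in KO at 8 h were 9.53 and 13.2. The element 44.8 kb upstream was in KO replicate 1 at 3 h, KO replicate 2 at 8 h and the littermate library at 8 h, with a MaxD of 4.48, 5.93 and 6.66.

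The 4 elements in and behind the gene body were weak. The element 2.9 kb downstream, from 30342589 to 30343303, had a MaxD of 1.67 and 2.37 in KO at 8 h and 1.40 in KO replicate 1 at 3 h. The element 5.0 kb downstream, from 30344440 to 30345627, had 4.46 and 4.03 in KO at 8 h, 3.64 in KO replicate 1 at 3 h and 4.66 in the littermate library at 8 h. Both were at most 21.5% of the promoter density of the same library. The element 7.1 kb downstream, from 30346501 to 30347718, had 3.63 and 4.27 in KO at 8 h and 3.73 in KO replicate 2 at 3 h. The element 8.8 kb downstream, from 30347764 to 30349747, had 4.19 and 3.80 in KO at 8 h, 2.24 and 2.58 in KO at 3 h and 5.00 in the littermate library at 8 h. Of these 4 elements, those 2.9 and 7.1 kb downstream were in no control list.

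An element 4.0 kb upstream was in all 3 control libraries at 8 h and in none of the 6 KO lists. It spanned chromosome 5 from 30335637 to 30336417. Its MaxD at 8 h was 7.66 in littermate and 5.35 and 5.90 in WT libraries, with Z-scores of 11.1, and of 8.19 and 9.36. The KO lists at 8 h held no hotspot there, although their lowest Z-scores were 3.47 and 3.40. In lists of 48084 hotspots each, it was the single element of 8 in the window that was in all 3 controls and in neither KO library at 8 h, as were 6.29% of 62535 regions in the genome. In the lists as deposited the share of the genome with that pattern was 0.314% of 197245 regions. In the shortened lists the element stood near the end in WT, at ranks 46930 and 46580 of 48084, and at rank 39543 in littermate. The WT hotspots of 258 and 291 bp covered less than 50% of the element, so it was not counted where 50% coverage was asked for.

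Rank strength at 8 h, with 48084 hotspots per list, also separated KO from controls at the elements 40.0 kb upstream and 60.0 kb downstream. At 40.0 kb upstream it was 22.4 and 27.3 in KO, against 50.4 in littermate and 52.8 and 53.8 in WT libraries. The Z-scores behind these ranks overlapped, at 16.2 and 19.5 in KO and 18.2 to 19.3 in controls. Hotspots of equal rank scored higher in KO, with 35.6 and 40.0 at rank 15659 against 25.8 to 27.3 in controls at 8 h. In the genome, 22.9% of regions stood lower in both KO lists than in any control list, so the pattern by itself was common. In the window, 2 of 8 elements stood lower in this sense, this one and the element 4.0 kb upstream. At the promoter rank strength was 85.1 and 85.8 in KO, against 82.1 in littermate and 86.0 and 87.5 in WT libraries. There KO lay within the range of the controls.

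**Figure D3:**
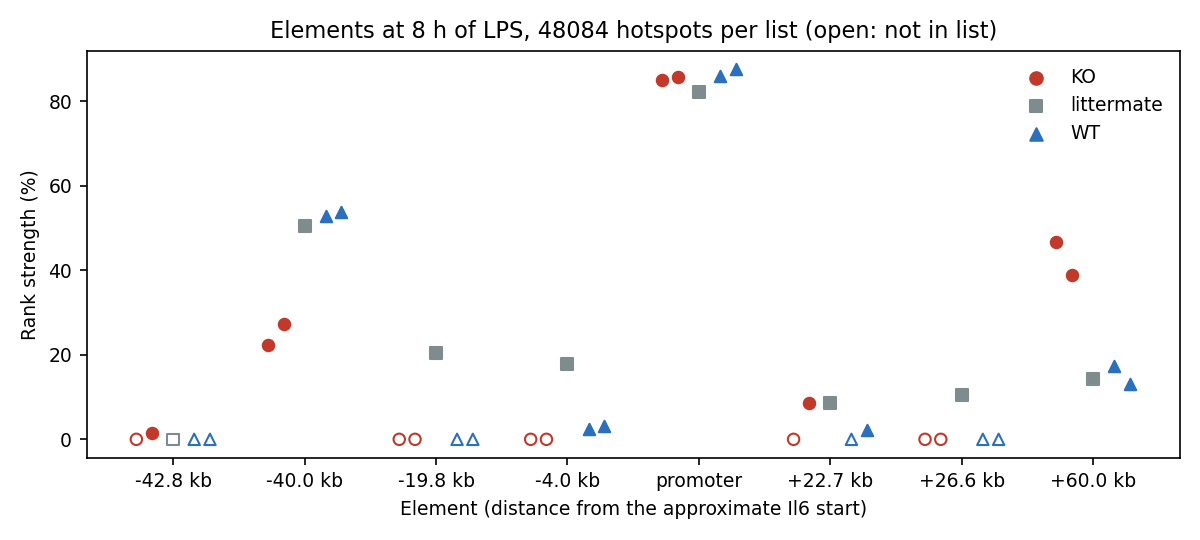
Rank strength of the 8 elements that entered lists of 48084 hotspots at 8 h of LPS, by distance from the approximate Il6 start, with 1 point per library and open points for lists without the element. KO libraries stand below the controls at 40.0 kb upstream, above them at 60.0 kb downstream and among them at the promoter.

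The element 60.0 kb downstream had a higher MaxD, which has no stated scaling between libraries, in KO than in any control library. It spanned chromosome 5 from 30399276 to 30400665, across the end of the window. In the GRCm38.p6 annotation the next protein-coding gene downstream of Il6 is Tyms, which encodes thymidylate synthase, and where Tyms begins in mm9 was not determined here. MaxD was 15.0 and 15.4 in KO at 0 h, then 12.3 and 13.2 at 3 h, then 14.5 and 11.4 at 8 h. It was 4.90, 4.06 and 6.99 in littermate libraries at 0, 3 and 8 h. In WT libraries it was 6.69 and 7.64 at 8 h. Of the 4 WT lists at 0 and 3 h, that of replicate 1 at 0 h had a hotspot within the element, with a MaxD of 4.78, which started 14 bp beyond the window and so was not counted as a member. The other 3 had none. Unlike the promoter, this element did not have its highest density at 8 h in KO. Whole KO lists were denser too, most of all before 8 h. The median MaxD of the 15659 best hotspots was 24.8 and 24.6 in KO at 0 h, against 8.28 to 10.3 in controls. At 3 h it was 25.2 and 24.7 against 8.58 to 11.1, and at 8 h 30.7 and 30.8 against 26.0 to 28.4. The part of this in the higher MaxD of the element in KO was not tested.

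Rank strength of the element 60.0 kb downstream at 8 h was 46.7 and 38.9 in KO, against 14.3 in littermate and 17.4 and 13.1 in WT libraries, and 29.5% of regions stood higher in both KO lists than in any control list. Before LPS its rank did not separate KO from controls. It was 19347 and 11582 in KO, against 18614 in littermate and 14825 in WT replicate 1, whose lists were shorter. In lists of 52400 hotspots over all times, none of 8 elements in the window was in all 6 KO lists and no littermate list, against 3.14% of 101256 regions, and none was the reverse, against 0.353%.

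Densities relative to the promoter of the same library need no scaling between libraries, but they also carry differences in the promoter itself. Over the list median, the promoter stood at 0.487 and 0.506 in KO at 0 h, against 0.773 in littermate and 0.773 in WT replicate 1. At 3 h it stood at 0.833 and 0.919 in KO, against 1.16 in littermate. The part of the promoter in the ratios was not tested. The element 60.0 kb downstream had 124% and 123% of the promoter density in KO at 0 h, against 76.5% in littermate and 70.6% in WT replicate 1. At 3 h it had 58.7% and 58.2% in KO, against 40.9% in littermate. At 8 h it had 53.6% and 45.3% in KO, against 32.3% in littermate and 26.7% and 28.9% in WT libraries. KO libraries were above the control libraries that held the element at each time. In both KO libraries at 0 h its density was above that of the promoter, and in KO replicate 2 its rank was too.

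The element 40.0 kb upstream showed the opposite order. At 8 h it had 40.2% and 38.7% of the promoter density in KO, against 58.5% in littermate and 50.7% and 55.3% in WT libraries, with no overlap. The element 4.0 kb upstream had 35.4% in littermate and 21.3% and 22.4% in WT libraries at 8 h. With 2 KO and 3 control libraries no exact test of such a ratio can give a p below 0.1, and the ratios were set side by side after the values were seen.

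**Figure D4:**
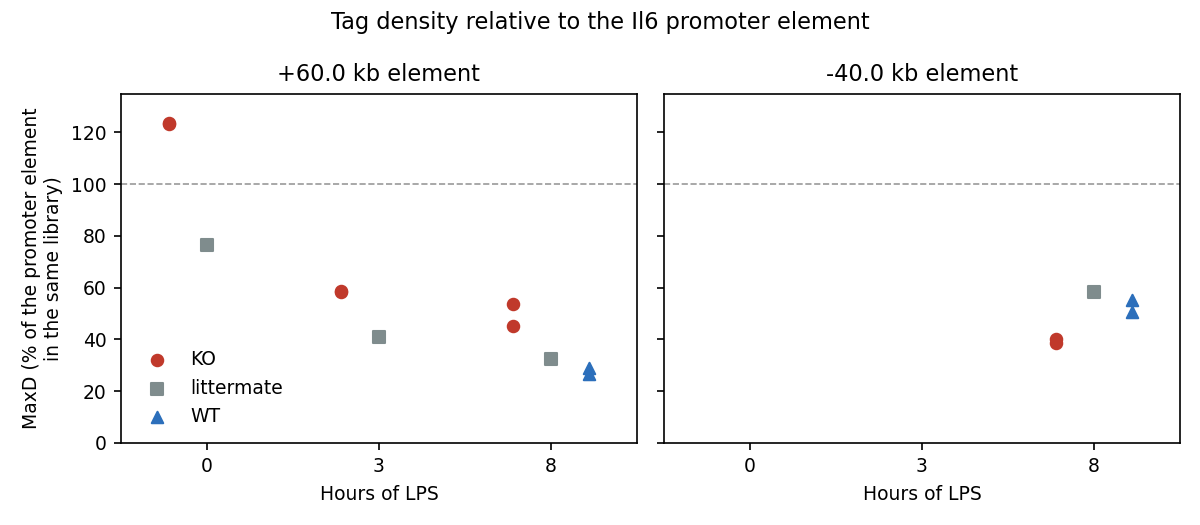
Highest tag density of the element 60.0 kb downstream (left) and of the element 40.0 kb upstream (right) as a percent of the promoter element in the same library, by hours of LPS, with 1 point per library and no point where no hotspot overlapped the window. KO libraries are above the controls on the left at each time and below them on the right at 8 h.

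The elements 22.7 and 26.6 kb downstream and 19.8 kb upstream were in all 6 KO lists and in 3, 2 and 1 of the 9 control lists. KO lists were also longer, and the part of list length in this was not tested. The littermate list at 8 h, the longest control list with 114427 hotspots, held all 3 elements. Control lists that lacked any of them held 15659 to 64262 hotspots, against 111553 to 132279 in KO lists. Among these control lists, length did not order presence. The list of WT replicate 2 at 8 h, with 51834 hotspots, held both downstream elements. The littermate list at 3 h, with 52400, held neither. The element 22.7 kb downstream, from 30362059 to 30363275, had a MaxD of 5.09 and 3.84 in KO at 0 h, then 5.04 and 5.74 at 3 h, then 3.91 and 6.40 at 8 h. In controls it had 3.39 in littermate at 0 h, 5.33 in littermate at 8 h and 5.90 in WT replicate 2 at 8 h. The element 26.6 kb downstream, from 30366026 to 30367091, had 3.16 to 5.30 over the 6 KO libraries, 5.66 in littermate at 8 h and 5.55 in WT replicate 2 at 8 h. The element 19.8 kb upstream, from 30319593 to 30320762, had 2.87 to 4.46 over the 6 KO libraries and 7.66 in littermate at 8 h, above every KO library.

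At 0 h, the second promoter hotspot and the element 26.6 kb downstream were in both KO lists and no control list as deposited. They were 2 of 8 regions of the window, against 21.6% of 167029 regions in the genome. At 3 h 3 of 14 regions had this pattern, the elements 19.8 kb upstream and 22.7 and 26.6 kb downstream, against 27.8% of 167448 regions in the genome. At 8 h 3 of 17 regions had it, the elements 42.8 kb upstream and 2.9 and 7.1 kb downstream, against 9.98% of 197245 regions. The KO lists held the most hotspots at each time, and lists of equal length left little of the window to compare. They held 2 of its regions at 0 h, and at 3 h only 1, the promoter, which was in every list. None of the 2 at 0 h, or of the 8 at 8 h, was in both KO lists and no control list, against 7.19% of regions in the genome at 0 h and 10.2% at 8 h (8.40% at 3 h).

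The remaining 5 elements were in 1 or 2 lists each. They lay 47.5 kb (KO replicate 2 at 8 h) and 15.8 kb upstream (littermate at 8 h), and 10.0 kb (KO replicate 2 at 8 h), 29.1 kb (KO replicate 2 at 3 h) and 46.8 kb downstream (KO replicate 1 at 0 h and littermate at 8 h). The window held 5 to 14 elements in KO, 2 to 12 in littermate and 1 to 6 in WT lists, and the longest list of each genotype held the most.

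Regions elsewhere with a rank strength most like that of the promoter over the 15 libraries were on chromosome 12 from 27139257 to 27141900 (Pearson r = 0.921), chromosome 11 from 82876286 to 82884694 (r = 0.905) and chromosome 17 from 18001681 to 18005929 (r = 0.9). They were the highest of 27872 regions compared. The libraries share genotypes, times and series, so these coefficients describe likeness and carry no test.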

How the data were processed

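DNase-seq of 15 libraries in 9 groups was used. Per the labels' protocols, DNase I cut the chromatin of isolated nuclei. The authors deposited 1 hotspot list per library. Its deposited MaxD column is a tag density signal, its deposited Z-score is a score of unstated definition, and a deposited p-value stands beside each hotspot. The build mm9 and the software CASAVA come from the submitters' processing notes, while aligner, hotspot caller and threshold were not given in the sources used here. The names of KO and littermate lists mention an FDR and those of WT lists do not. Whether coordinates count from 0 or 1 is not stated.

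Hotspots were ranked by Z-score within a list, lists were shortened to the shortest of a comparison, and hotspots sharing 1 bp or more were merged. A region was gained if present in every list of the first group and in none of the second, and lost in the reverse case; the same call over all regions is the background. Rank strength of the promoter was compared by exact permutation with Benjamini-Hochberg adjustment over 4 tests. Region calls were tested on simulated data. Elements given in full were the promoter, those in all lists, those gained or lost, and those of highest median strength, although that median was 0 for every element but the promoter. The elements 44.8 and 19.8 kb upstream and 22.7 and 26.6 kb downstream were given in full after their values were seen. The window, its elements and the comparisons were chosen with earlier results of these data known. Alternatives were other list lengths, ranking by MaxD, 50% coverage and leaving out replicates; KO alone, 8 h alone, 8 h against 3 h and crossed replicate numbers were chosen after seeing the data. Software was Python 3.11.15, pandas 2.3.3 and numpy 2.4.6.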

Additional observations from a re-analysis of the deposited data

How the results depend on the processing

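Depth and threshold limit every statement of absence, and the cause of the changes given here was not tested. With lists as deposited, 1 element was gained at 8 h against 0 h, 3 were gained in KO against controls at 8 h, the KO minus control difference in promoter strength reversed to 18.5, and the difference in the change with LPS reversed to -30.3. Lists of 0.5 times the length gave 1 element gained at 3 h. Ranking by density moved the KO minus control difference to -14.4. Where 50% of an element had to be covered, no element (0) was lost in KO at 8 h, the differences of 8 h and 3 h from 0 h were 33.8 and 26.0 (exact permutation p = 0.167 and 0.333), and the KO difference reversed to 24.5. With all lists shortened to the shortest, 2 elements were left. KO libraries alone gained 6 elements at 8 h, and strength differed from 0 h by 5.00 at 8 h and 6.38 at 3 h, each with an exact permutation p of 0.333, the smallest possible there. At 8 h alone the KO difference was 0.208, and with WT as the control series the difference in change was -2.15. Leaving out 1 replicate at a time gave 0 to 1 elements gained and 1 to 2 lost in KO at 8 h (2 without WT replicate 1), differences of 21.6 to 33.4 at 8 h and 40.8 to 46.5 at 3 h with exact permutation p = 0.0556 to 0.0833, KO differences of -8.90 to 1.61 and differences in change of -5.21 to 21.6. These leave-one-out p-values of the time comparisons are the smallest that designs of that size allow. Replicate numbers go with the DNase amount in WT, where deviations of same-numbered libraries correlated at 0.182 to 0.267 over the 3 pairs of times. In KO no label ties the numbers, and they correlated at -0.0295 to 0.155, and between KO and WT of a time at -0.166 to -0.00782. With the replicate block the differences were 29.8 and 46.2 (exact permutation p = 0.0625 each). For genotype the block left out the littermate libraries, and the KO minus WT difference was -5.58 (exact permutation p = 0.438, and 0.469 with crossed numbers). Of 132 recomputed values, 99 kept direction and side of 0.05 for the unadjusted p or, for counts, stayed close to the count reported. After adjustment neither main time comparison passed 0.05. Many of the counts were 0 and stayed 0.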
